A study of Rattus norvegicus with 12 samples.

Results

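Retsat and 8 other genes of the retinoid pathway (Rbp4, Aldh1a1, Crabp2, Stra6, Rara, Rarb, Rxra and Rxrg) were followed in the hypothalamic arcuate nucleus (ARC) of recuperated and control rats. Their 14 probe sets, out of 31042 tested, were those whose platform annotation gives the gene symbol alone, and the 9 genes are among 14217 symbols named in this way. The brightest probe set over the 12 arrays stands for each gene. The ARC was cut by laser capture from stained brain sections of male Wistar rats aged 3 months, and its amplified RNA was hybridised to Affymetrix rat genome arrays. Controls (6 arrays, 1 animal each) were offspring of control dams. Recuperated rats (6 arrays, 1 animal each) were born to dams on a diet with 8% protein and were nursed by control dams, and both groups then ate standard chow. Per the methods, litters of recuperated pups were also cut to a smaller size than control litters and held males alone. The diet before birth, the change of dam and the size of the litter cannot be told apart in this model. The genes were picked on a result of these arrays, the difference of Retsat between the groups, and the others were chosen from the pathway around it. The values are log2 expression made with RMA (robust multi-array averaging), so a difference of 1 is a doubling. Levels are those deposited, and differences were taken after subtraction of each array's median. In bulk tissue of this kind, fewer cells of a type and less RNA per cell cannot be told apart.

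Retinoids are vitamin A and its derivatives. Retinol travels in blood bound to Rbp4, enters cells through the receptor Stra6, and is oxidised first to retinal and then, by enzymes such as Aldh1a1, to retinoic acid. Crabp2 carries retinoic acid to the nucleus, where it binds the retinoic acid receptors Rara and Rarb, which sit on DNA in pairs with the retinoid X receptors Rxra and Rxrg. Retsat saturates a double bond of retinol to give dihydroretinol, and is best known from fat and liver. In the hypothalamus, retinol uptake and retinoic acid synthesis are best known from tanycytes, elongated cells that line the floor of the third ventricle beside the ARC.

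The receptors recognise short direct repeats of a half-site related to AGGTCA. The table of rat promoters used here (RefSeq, build GRCr8) holds 250 bases before and 50 bases after a start given for each gene. It had a window for all 9 genes. For Aldh1a1, Rara and Rarb that start lies inside the span of the gene, and the 250 bases of Rxrg overlap the beginning of its gene. The 250 bases before Retsat lie at chr4:106211209-106211458 on the plus strand, upstream of the gene (chr4:106211459-106220222). They are shown because Retsat had the largest difference upwards of the 9 genes. Another reason is that the 6 bases in capitals, AGGTCA, occur in the 250 bases before the given start of no other of the 9. Both strands were searched. Over all windows, 14.1% hold this half-site in the same 250 bases.
Retsat: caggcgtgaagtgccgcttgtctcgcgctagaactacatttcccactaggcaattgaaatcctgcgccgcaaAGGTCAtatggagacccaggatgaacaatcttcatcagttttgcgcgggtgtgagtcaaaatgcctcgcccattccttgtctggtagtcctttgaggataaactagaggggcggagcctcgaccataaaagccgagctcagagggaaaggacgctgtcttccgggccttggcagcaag
A direct repeat spaced by 5 bases, made of the half-site AGGTCA or of its variants (AGTTCA as one form, GGGTCA as another, with GGTTCA as the last) on either strand, was found in 1 of the 9 windows, that of Rarb, and in 0.382% of all windows. Rarb is known as a target of its own ligand through such an element. The element of Rarb lies within the gene at chr15:11336416-11336432 on the plus strand, and its first base is base 25 after the start given in the table. For comparison, the window of Cyp26a1, an enzyme that degrades retinoic acid, holds such a repeat before the start given in the table. It lies at chr1:244883730-244883746, on the minus strand. The half-sites are in capitals.
Rarb: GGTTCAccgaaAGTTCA
Cyp26a1: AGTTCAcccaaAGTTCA
A match is a description of the letters and not of binding.

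The fourth recuperated array stood apart before any comparison of the groups. The mean of 9 ARC marker genes, with Cartpt and Npy the brightest, exceeded the median of the array by 0.73 (log2) on it and by 2.83 to 3.13 on the other 11 arrays. Markers of the neighbouring ventromedial nucleus, led by Adcyap1 and Cnr1, lay 2.71 above on it and between -0.49 and 0.95 on the others, and 6 neuronal markers lay 5.56 above, against 4.50 to 4.96. The tissue label was thus borne out by ARC markers on the other 11 arrays. Pomc, an ARC neuropeptide gene, exceeded the median on 0 arrays. The paper, in contrast, reports high expression of Pomc in the captured ARC by Taqman RT-PCR (data not shown). The reason for this difference was not tested. The 9 genes are given below with and without the fourth recuperated array. So are the named genes of the wider pathway, at least where its omission changed a sign or a call. Some pathway genes that are not named also changed sign without it.

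Retsat was higher on average in recuperated rats, with overlap between the groups. On the control arrays 1 to 6 its level was 8.52, 8.67, 9.51, 8.46, 8.93 and 8.47. On the recuperated arrays 1 to 6 it was 9.40, 8.75, 8.69, 9.42, 9.39 and 9.51. Recuperated arrays 1, 4, 5 and 6 lay above all controls but control 3, which matched the highest of them, and recuperated arrays 2 and 3 lay within the control range. Control arrays averaged 8.76 ± 0.41 (SD, n = 6), and recuperated arrays 9.19 ± 0.37 (SD, n = 6). The difference was 0.41 ± 0.21 (log2, SE), a 1.33-fold higher level, and 0.37 ± 0.22 (SE) without the fourth recuperated array. It is given as a description with no test, since the study took Retsat up for its difference on these arrays. The paper reports that RT-PCR on captured ARC, with another amplification method, also found Retsat to be differentially expressed. Retsat was a bright gene, above the median of all 12 arrays, and 14.6% of all probe sets had a higher mean.

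**Figure D1:**
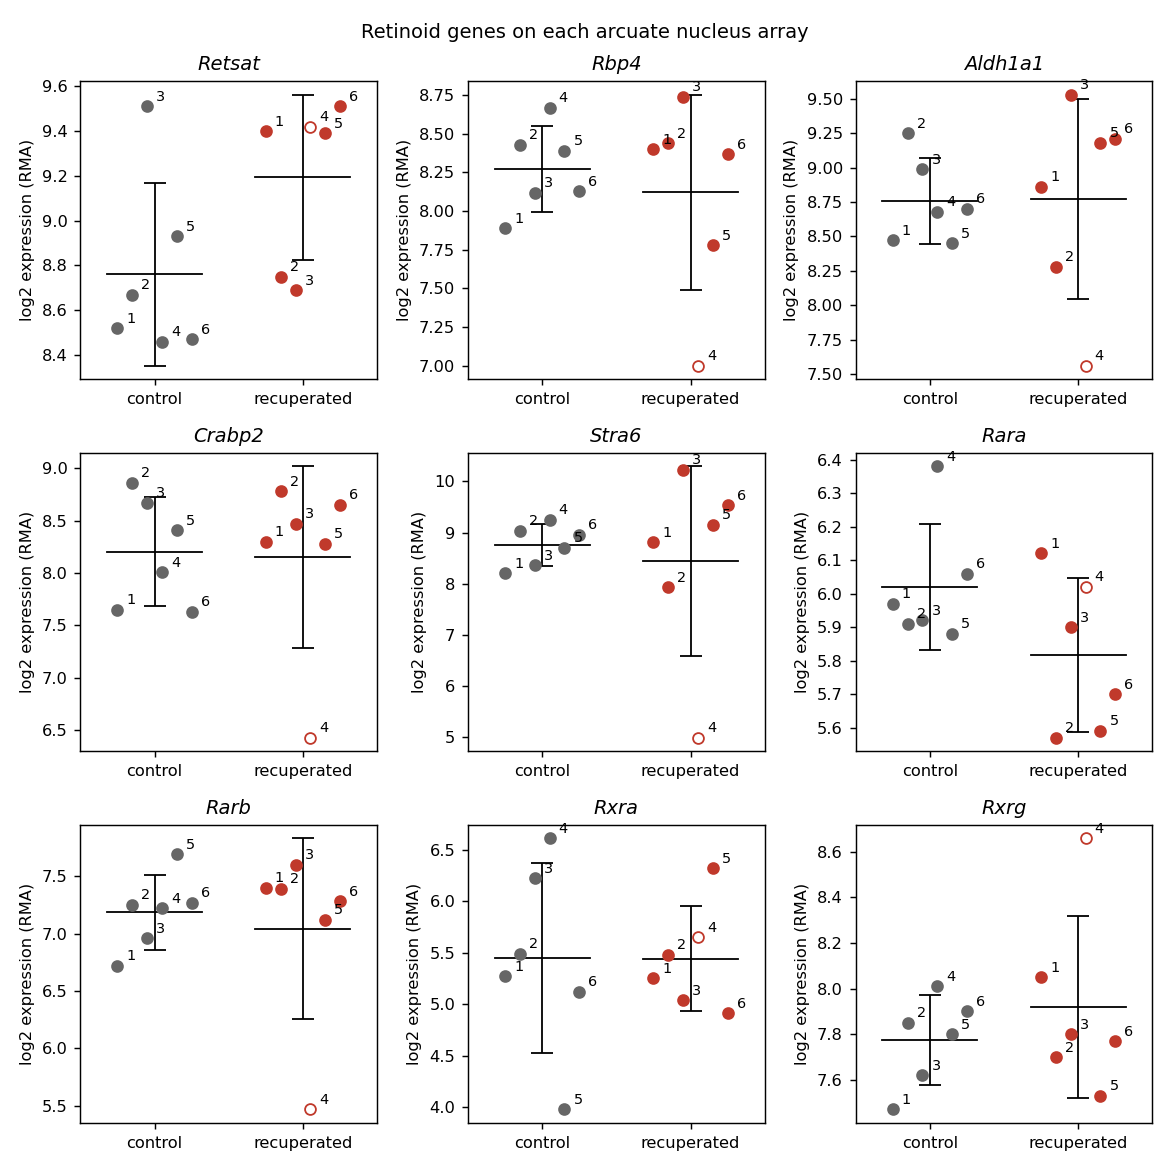
Log2 expression (RMA) of the 9 retinoid genes by group, 1 point per array with its number, and the group mean and SD as black lines. Recuperated array 4 (open circle) is the lowest of all 12 arrays for Rbp4, Aldh1a1, Crabp2, Stra6 and Rarb and the highest for Rxrg, and each panel has its own axis.

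In the limma fit, 0 of the 8 genes other than Retsat and 0 of their 13 probe sets passed the threshold used by the study, a 1.3-fold difference with P under 0.05. The study required it under each of its algorithms, whereas values from RMA alone were tested here. Of the 8, 0 had an unadjusted P under 0.05 and 0 passed an adjusted p of 0.05. By the methods' t-test the count past the threshold was also 0 of 8, and it was 0 of 8 in limma without recuperated array 4, when 2.8% of all probe sets passed. Of all probe sets tested, 2.47% passed the threshold in limma and 1.63% with the methods' t-test, and a count of 0 of 8 is not set apart from these shares. Over all probe sets, 3.45% had an unadjusted P under 0.05, and 0.0% passed the adjusted p. Retsat and Rxrg had positive differences and the other 7 genes negative ones, with a median of -0.07 (log2) over the 9 and -0.03 over all probe sets, of which 43.4% were positive. Without recuperated array 4, Rbp4, Aldh1a1, Crabp2, Stra6 and Rarb became positive and Rxrg negative.

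Rbp4 and Stra6 stand for the delivery of retinol. Rbp4 was at 7.89, 8.43, 8.12, 8.67, 8.39 and 8.13 on control arrays 1 to 6, and at 8.40, 8.44, 8.74, 7.00, 7.78 and 8.37 on recuperated arrays 1 to 6. The groups overlapped, and recuperated arrays 4 and 5 were the lowest of the 12. The difference was -0.17 ± 0.25 (log2, SE; 95% interval -0.71 to 0.37; exact two-sided permutation p = 0.606), and 0.06 ± 0.18 (SE) without recuperated array 4.

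Stra6 had 5 probe sets. The brightest was at 8.21, 9.04, 8.36, 9.25, 8.70 and 8.96 on control arrays 1 to 6, and at 8.81, 7.93, 10.23, 4.99, 9.15 and 9.53 on recuperated arrays 1 to 6. Recuperated rats thus held both the highest value (array 3) and the lowest (array 4), with the other 4 from 7.93 to 9.53. Their SD was 1.85, against 0.41 in control, and the difference of -0.33 ± 0.66 (log2, SE; 95% interval -1.75 to 1.08; exact permutation p = 0.805) became 0.36 ± 0.34 (SE) without recuperated array 4. The second probe set, 1385475_a_at, followed the brightest closely over the 12 arrays (Pearson r = 0.995, across 12 arrays that share the one that stands apart). Its difference was -0.24, and 0.45 without recuperated array 4. Of the 3 dimmer probe sets, 1376962_at differed by -0.30, 1385476_x_at by -0.58 and 1381606_at by -0.42. Without recuperated array 4 these were 0.08, -0.27 and -0.29, so the probe sets of Stra6 differed in sign among themselves. The last 2 were dim, above the array median on 2 and 1 of the 12 arrays.

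Aldh1a1 and Crabp2 stand for the making and carrying of retinoic acid. Aldh1a1 was at 8.47, 9.25, 8.99, 8.68, 8.45 and 8.70 on control arrays 1 to 6, and at 8.86, 8.28, 9.53, 7.56, 9.18 and 9.21 on recuperated arrays 1 to 6. The recuperated values were spread on both sides of the control range. The difference was -0.01 ± 0.29 (log2, SE; 95% interval -0.63 to 0.62; exact permutation p = 0.991), was 0.01 without subtraction of the array medians, and was 0.24 ± 0.22 (SE) without recuperated array 4.

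Crabp2 was at 7.65, 8.86, 8.67, 8.01, 8.41 and 7.63 on control arrays 1 to 6, and at 8.30, 8.78, 8.47, 6.43, 8.28 and 8.65 on recuperated arrays 1 to 6. All recuperated values but that of array 4 lay within the control range. The difference was -0.07 ± 0.36 (log2, SE; 95% interval -0.84 to 0.69; exact permutation p = 0.907), and 0.27 ± 0.22 (SE) without recuperated array 4.

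The receptors are the end of the pathway. Rarb was at 6.72, 7.25, 6.96, 7.22, 7.69 and 7.27 on control arrays 1 to 6, and at 7.40, 7.39, 7.60, 5.47, 7.12 and 7.28 on recuperated arrays 1 to 6. Its difference was -0.16 ± 0.31 (log2, SE; 95% interval -0.82 to 0.50; exact permutation p = 0.820), and 0.16 ± 0.16 (SE) without recuperated array 4, the only one of the 12 outside 6.72 to 7.69. Rxrg, a retinoid X receptor known from parts of the brain and from muscle, was at 7.47, 7.85, 7.62, 8.01, 7.80 and 7.90 on control arrays 1 to 6, and at 8.05, 7.70, 7.80, 8.66, 7.53 and 7.77 on recuperated arrays 1 to 6. Here recuperated array 4 was the highest. The difference was 0.12 ± 0.18 (log2, SE; 95% interval -0.26 to 0.51; exact permutation p = 0.587), and -0.02 ± 0.14 (SE) without that array. A second probe set of Rxrg, 1392271_at, was above the array median on 0 arrays and differed by -0.01, or 0.01 without subtraction of the array medians, after quantile normalization or without recuperated array 4.

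Rara and Rxra lay mostly below the array median and exceeded it on 1 and 2 of the 12 arrays. Rara was at 5.97, 5.91, 5.92, 6.38, 5.88 and 6.06 on control arrays 1 to 6, and at 6.12, 5.57, 5.90, 6.02, 5.59 and 5.70 on recuperated arrays 1 to 6. Recuperated arrays 2, 5 and 6 lay below all controls, and the difference was -0.22 ± 0.14 (log2, SE; 95% interval -0.52 to 0.07; exact permutation p = 0.108), or -0.26 ± 0.14 (SE) without recuperated array 4. Rxra was at 5.27, 5.49, 6.22, 6.61, 3.98 and 5.12 on control arrays 1 to 6, and at 5.25, 5.48, 5.04, 5.65, 6.32 and 4.91 on recuperated arrays 1 to 6. The control values alone spanned the whole range, and the difference was -0.03 ± 0.38 (log2, SE; 95% interval -0.83 to 0.78; exact permutation p = 0.946), or -0.07 ± 0.41 (SE) without recuperated array 4. Differences of either sign that lie within the intervals above are not excluded by these 12 arrays.

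**Figure D2:**
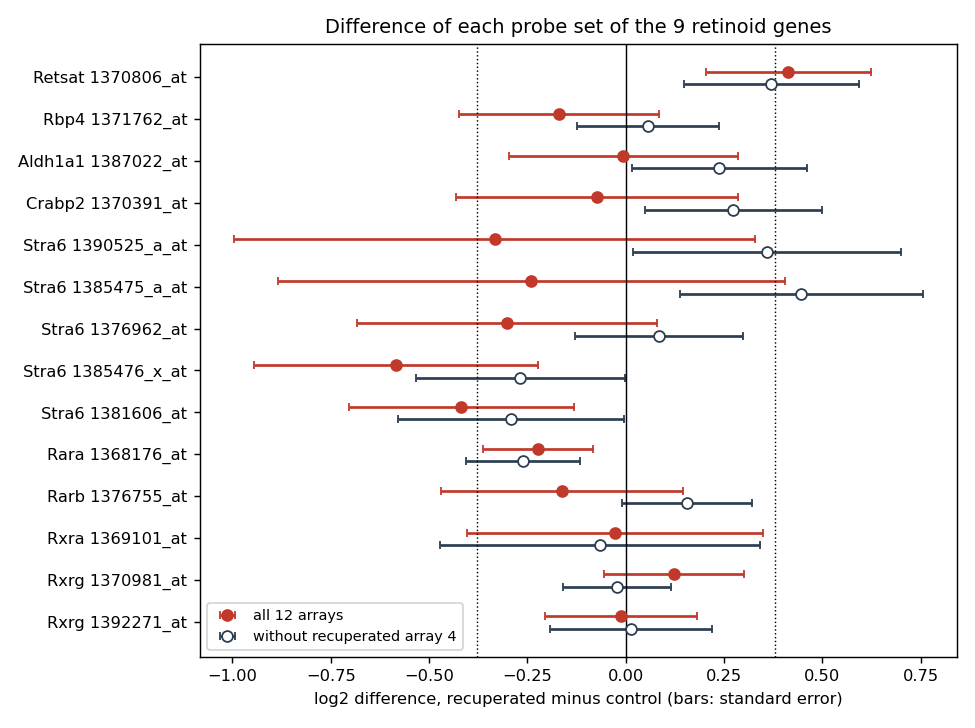
Log2 difference, recuperated minus control, of the 14 probe sets with all 12 arrays (filled, red) and without recuperated array 4 (open), with SE as bars and dotted lines at 1.3-fold. Leaving that array out moves the brightest Stra6 probe set from -0.33 to 0.36 and Retsat from 0.41 to 0.37.

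Recuperated array 4 was the lowest of the 12 arrays for 5 of 9 genes (Rbp4, Aldh1a1, Crabp2, Stra6 and Rarb), all of them among the 7 brighter genes, which exceeded the array median on 6 arrays or more. Over all probe sets it was the lowest for 13.2%, and for 15.4% of those as bright as that. Retsat was not among these 5, with 9.42 on this array.

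The same array was low in the markers of the cells that line the third ventricle. The mean of 10 tanycyte markers, of which Crym and Col25a1 were the brightest and Gpr50 was above the array median on 0 arrays, lay 0.14 above the array median on recuperated array 4, 1.85 to 2.27 above on the other recuperated arrays and 1.67 to 2.17 above on control arrays. On recuperated array 4, 8 of the 10 had their lowest value, whereas Col25a1 was at 11.52, above its range of 10.36 to 11.09 on the other arrays. The 3 measured markers of ependyma, the ciliated lining of the ventricle, were also lowest on it. Their mean was -0.77 on it, against -0.01 to 0.83 on the others. Foxj1 and Rarres2 were the brightest of the 3, and 1 of the 3 was above the array median on 0 arrays. Rarres2 is also in the list of retinoic acid target genes used below. The mean of 6 astrocyte markers on recuperated array 4 (4.59) lay within the range of the other arrays (4.55 to 4.83). The brightest of these 6, Gfap, was however at 11.38 on it and at 12.18 to 12.81 on the others. Of the tanycyte markers, 8 of 10 had a negative difference and 0 passed the 1.3-fold threshold, beside 2.47% of all probe sets. The part of the tissue cut in the values of the retinoid genes was not tested.

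Over the 12 arrays, the tanycyte mean rose with Stra6 (Pearson r = 0.92), Rarb (0.88), Rbp4 (0.87), Crabp2 (0.83) and Aldh1a1 (0.80), with adjusted permutation p of 0.011 for Stra6, Rbp4 and Aldh1a1, 0.041 for Crabp2 and 0.044 for Rarb over 9 relations. These values rest on recuperated array 4. That array was known to stand apart in its marker genes before the relations were taken. The adjusted p above are therefore no support for a relation over the other arrays. Spearman's rho was 0.70 for Stra6, 0.71 for Aldh1a1, 0.64 for Rbp4, 0.50 for Crabp2 and 0.34 for Rarb, and 0 of 9 passed an adjusted permutation p of 0.05 for rho (smallest 0.064). Without recuperated array 4, over 11 arrays, r was 0.57 for Stra6, 0.59 for Aldh1a1 and 0.55 for Rbp4 (adjusted permutation p = 0.236 for each), 0.27 for Crabp2 and 0.19 for Rarb (adjusted permutation p = 0.644 for both). Leaving out the 2 arrays farthest from the median, recuperated 4 and control 5, gave r of 0.61 for Stra6, 0.50 for Aldh1a1, 0.74 for Rbp4, 0.36 for Crabp2 and 0.70 for Rarb. Within the 6 control arrays r was 0.63 for Stra6, 0.79 for Aldh1a1, 0.36 for Rbp4, 0.21 for Crabp2 and -0.03 for Rarb. Within the 6 recuperated arrays, array 4 among them, it was 0.94, 0.84, 0.94, 0.98 and 0.99 in the same order, and without array 4 too few recuperated arrays remain for a correlation. For Retsat r was -0.35 and rho -0.24 (adjusted permutation p = 0.371 for r and 0.688 for rho). Its r was -0.19 over the 11 arrays without recuperated array 4, and -0.25 without recuperated 4 and control 5. It was -0.61 when control arrays 5 and 1, the farthest from the median of the 11, were left out beside recuperated array 4. With these same arrays left out, r was 0.52 for Stra6, 0.35 for Aldh1a1, 0.64 for Rbp4, 0.02 for Crabp2 and 0.46 for Rarb. For Retsat it was -0.10 within the 6 control arrays and -0.38 within the 6 recuperated arrays. For Rara, Rxra and Rxrg r was -0.06, -0.01 and -0.70 (adjusted permutation p = 0.897, 0.979 and 0.110), and 0.13, 0.23 and 0.38 without recuperated array 4.

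**Figure D3:**
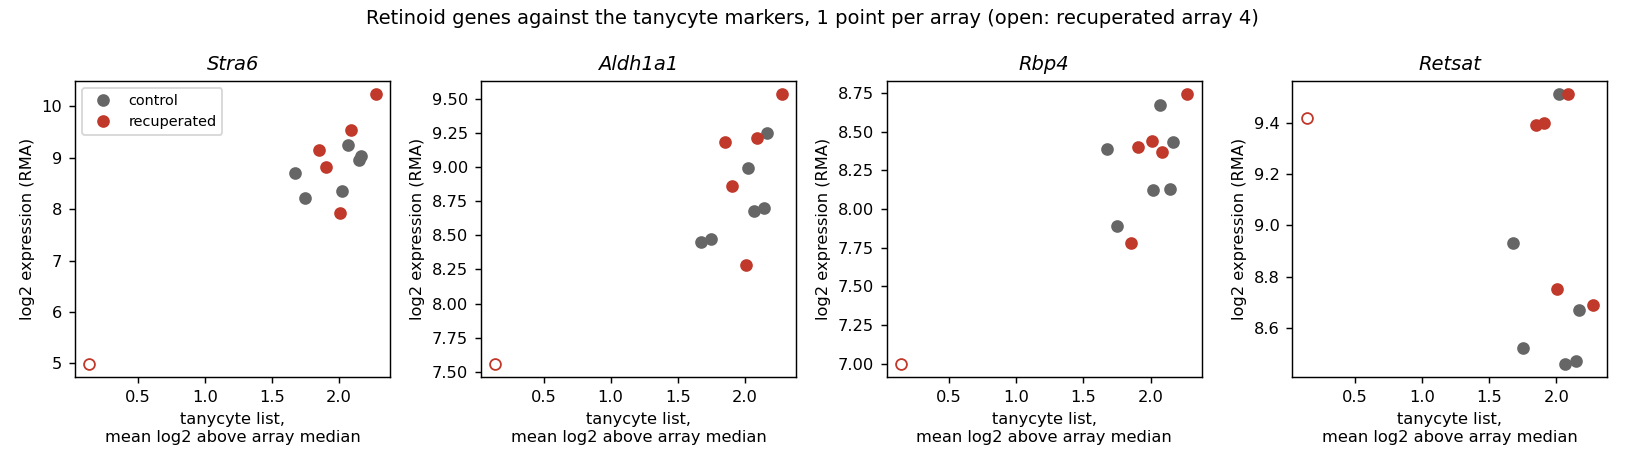
Log2 expression (RMA) of Stra6, Aldh1a1, Rbp4 and Retsat against the mean of 10 tanycyte markers (log2 above the array median), 1 point per array, with grey points for control and red points for recuperated rats. Recuperated array 4 (open) lies at 0.14 on the horizontal axis, far from the other 11 arrays at 1.67 to 2.27.

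Of the wider pathway, 59 other genes were listed in 9 roles and 50 were measured. Of these 1 passed the 1.3-fold threshold upwards and 0 downwards (background 1.2% and 1.27%), 16 had positive and 34 negative differences, and the median was -0.09. The gene that passed was Rarres1, a retinoic acid responder gene, with control arrays at 4.08 ± 0.33 (SD, n = 6), recuperated arrays at 4.49 ± 0.23 (SD, n = 6) and a difference of 0.39 ± 0.17 (log2, SE; exact permutation p = 0.039). It was above the array median on 0 arrays, and its difference was 0.42 without recuperated array 4. It was no longer past the threshold with folds from linear means, with array weights or with the animal number as a block, and the filter on dim probe sets removed it. It was also lost on omission of a single control array (1, 3, 5 or 6) or of a single recuperated array (1, 5 or 6), with differences of 0.29 to 0.39.

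In retinol uptake, the 3 measured genes all had negative differences and 0 passed, with Lrp2, an endocytic receptor, at -0.20 and Stra6l, a relative of Stra6, at -0.04. In cellular binding, 0 of 4 passed. Crabp1, a retinoic acid binding protein, was at 7.02 on recuperated array 4 and at 10.87 to 11.82 on the other 11, so its difference of -0.65 ± 0.63 (log2, SE) was 0.07 without that array. Fabp5, which can also carry retinoic acid, differed by -0.09. In storage, 0 of 3 passed. Lrat, which esterifies retinol, was at 4.96 on recuperated array 4 and at 7.32 to 8.80 elsewhere, with a difference of -0.67 ± 0.50 (SE), and -0.16 without that array. Dgat1, an acyltransferase, differed by -0.12.

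The oxidoreductases interconvert retinol and retinal. Of 14 measured, 6 were positive, 8 negative and 0 passed. Rdh13 differed by 0.39 ± 0.19 (log2, SE; exact permutation p = 0.093) and Rdh10, the main retinol dehydrogenase of the embryo, by 0.32 ± 0.20 (SE; exact permutation p = 0.160), and without recuperated array 4 these were 0.35 and 0.33. The brightest probe set of Rdh10 exceeded the array median on 3 arrays, and with the mean of its probe sets Rdh10 differed by 0.18. In retinoic acid synthesis (3 measured) and clearance (2 measured) 0 passed, with Aldh1a3 at -0.09, Cyp1b1 at 0.07, Cyp26a1 at -0.16 and Cyp26b1, which degrades retinoic acid in the brain, at -0.34 ± 0.38 (SE). Cyp26b1 was at 4.47 on recuperated array 4 and at 6.23 to 7.44 elsewhere, and its difference was 0.04 without that array.

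The receptors Rarg and Rxrb differed by -0.21 and -0.15, and 0 of 2 passed. Among 10 partner receptors of the retinoid X receptors, Thrb, a thyroid hormone receptor, differed by 0.28 ± 0.13 (log2, SE; exact permutation p = 0.035), below 1.3-fold, and by 0.26 without recuperated array 4. Under the settings other than omission of an array, the difference of Thrb ranged from 0.12 to 0.295. Nr4a2, an orphan receptor that pairs with Rxr, differed by -0.32 ± 0.20 (SE; exact permutation p = 0.154), by -0.25 without recuperated array 4, and by 0.05 with the mean of its probe sets. Of 9 measured target genes, 5 were positive and 4 negative, and Drd2, a dopamine receptor gene, differed by -0.34 ± 0.17 (SE; exact permutation p = 0.087) at a level above the array median on 0 arrays. Without recuperated array 4, its highest recuperated value, Drd2 differed by -0.42 ± 0.17 (SE; exact permutation p = 0.043) and passed the threshold, so that 2 of the 50 genes passed, Rarres1 and Drd2, beside 2.8% of all probe sets.

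**Figure D4:**
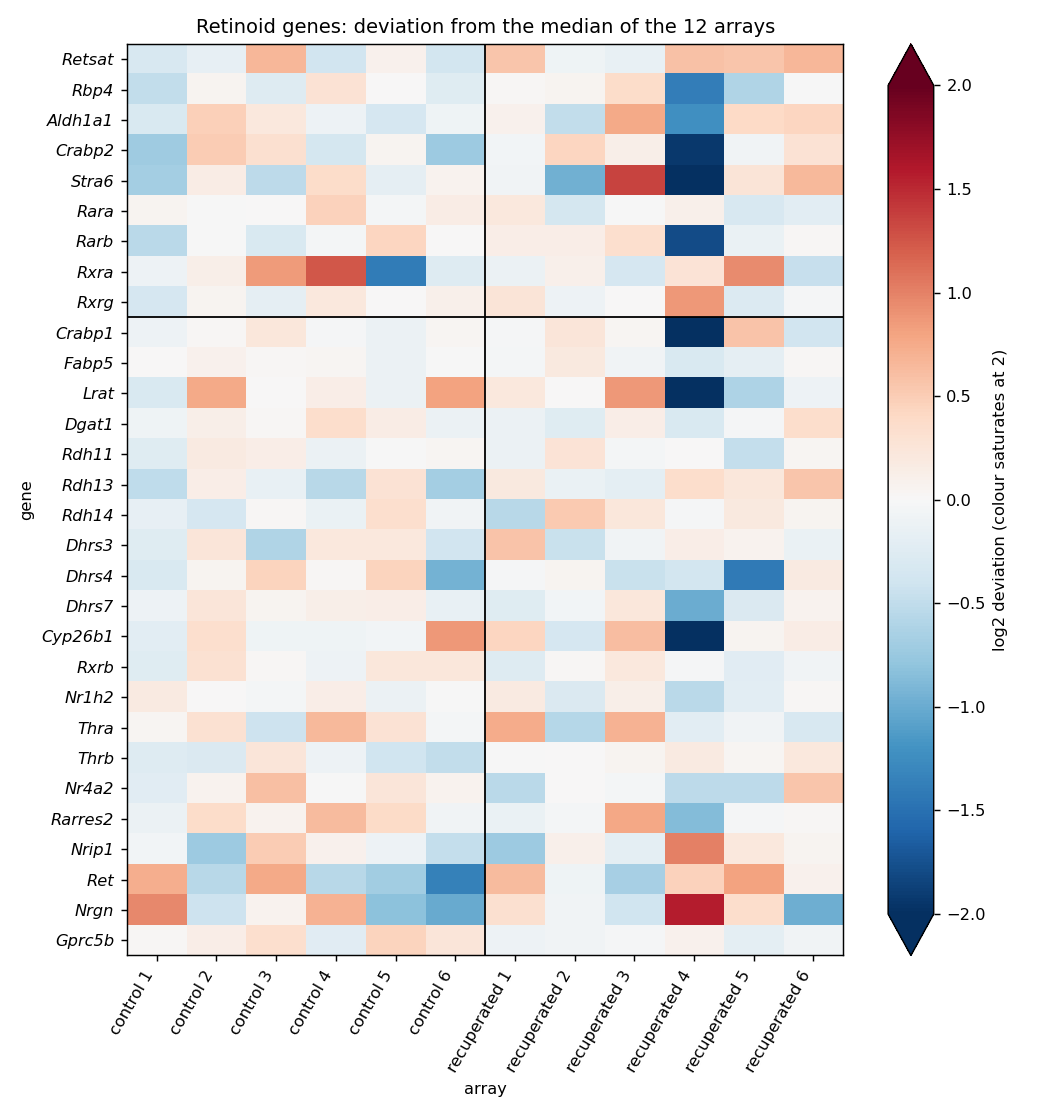
Log2 deviation of each array from the median of the 12 arrays, for the 9 retinoid genes (above the line) and the 21 brighter genes of the wider pathway. The column of recuperated array 4 holds the lowest value of 5 of the 9 and 8 of the 21, among them Crabp1, Lrat and Cyp26b1.

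Over the 12 arrays, the genes whose pattern was most like that of Retsat, among 12222 candidate probe sets, were Zfp462 (Pearson r = 0.85), Tnik (0.79), Zfp12 (0.79), Cep43 (0.78) and Hnrnpu (0.77). With the group means taken out, r was 0.79, 0.74, 0.72, 0.69 and 0.73. They are the highest of many and come with no test. Against the other 8 retinoid genes, r of Retsat lay between -0.42 (Rbp4) and 0.16 (Rxrg).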

How the data were processed

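Per the labels, RNA from laser-captured ARC of 6 control and 6 recuperated rats was amplified and hybridised, 1 animal per array. The authors deposited log2 expression values for 31099 probe sets, made with RMA. The submitters' processing notes list RMA with Affymetrix Expression Console and give no version. GeneSpring, GC-RMA and GCOS, which the methods of the paper also describe, were not used here.

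From the deposited values, 57 Affymetrix control probe sets were left out and each array's median over the other 31042 was subtracted. RMA tends to shrink differences of dim probe sets. Groups were compared with limma 3.58.1 (lmFit and eBayes, no covariates) in R 4.3.3, with Benjamini-Hochberg adjustment over the 31042 probe sets. Exact permutation tests of single genes, two-sided, ran over 924 arrangements (smallest possible p 0.0022), and relations had 100000 permutations. Python 3.11.15, numpy 2.4.6, pandas 2.3.3, scipy 1.17.1 and matplotlib 3.10.9 made the tables and plots. The fit was tested on simulated data. A symbol stood alone for 20826 probe sets, 436 had several and 9780 none. The 9 genes and the lists were chosen with earlier results of these data known. Named genes were all 9 with every probe set, the 5 most like Retsat, every other pathway gene past the threshold with the 2 of smallest p in each role, and the brightest 2 of a marker list. Pomc, Gpr50 and the genes at their lowest on recuperated array 4 are named beside these, chosen after their values were seen.

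Settings tried beside these were the deposited values unsubtracted, quantile normalization, brighter probe sets alone, the methods' t-test, array weights, the animal number as a block, linear means for folds, averaging a gene's probe sets, and omission of each array. Each label names a separate animal. Precision is limited by the number of arrays.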

Additional observations from a re-analysis of the deposited data

Results flagged for a closer look

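In 64 groups of 6 arrays (32 named probe sets in 2 groups), 9 single values lay apart from the rest of their group by Dixon's 95% criterion, where chance gives about 1 group in 20. Of these, 6 were on recuperated array 4. Crabp2 was at 6.43 on it (log2, next recuperated value 8.28), Rarb at 5.47 (next 7.12), the third Stra6 probe set 1376962_at at 4.71 (next 6.47), Crabp1 at 7.02 (next 10.87) and Cyp26b1 at 4.47 (next 6.23). Drd2 was the highest of its group there, at 4.66 (next 4.25). The other 3 values were on other arrays. Rara was at 6.38 on control array 4 (next 6.06), the dim Rxrg probe set 1392271_at at 3.85 on control array 5 (next 4.52) and Cyp1b1 at 4.51 on recuperated array 1 (next 3.56). The tissue markers of recuperated array 4 are given above, and their part in these values was not tested.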

How the results depend on the processing

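The count of the 8 genes other than Retsat past 1.3-fold with P under 0.05 was 0 under all 8 alternatives other than single arrays and on each of 12 omissions of an array, as was that of their 13 probe sets (7 alternatives). The difference of Retsat, which was not tested, was 0.36 to 0.43 under the alternatives and 0.35 to 0.56 over the omissions. The 1 of the other pathway genes (Rarres1) became 0 with the filter on dim probe sets and with linear means, 2 with probe sets averaged per gene, and 0 to 4 without single arrays, with the 4 reached without recuperated array 3. With array weights it was again 1, but of Drd2 and not Rarres1, and without recuperated array 4 it was 2, of both. With the animal number as a replicate block the count was 0. The same-number correlations of the block were -0.020, -0.136, -0.162, -0.029, -0.142 and 0.080, 0 of 6 numbers correlated best with their own number, and the number was not used to pair animals.

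Several differences changed sign, small ones and larger ones alike. With array weights, Rbp4 was 0.0052, Aldh1a1 0.086, Crabp2 0.13, Stra6 0.061 and 0.145 (1385475_a_at), and Rarb 0.040. With linear means, Aldh1a1 was 0.10, Crabp2 0.011, and Stra6 0.26 and 0.28. Without median subtraction, Aldh1a1 was 0.013 and Rxrg 1392271_at 0.0083 (0.0094 after quantile normalization). With the mean of its probe sets, Nr4a2 was 0.053. Over the omissions of single arrays, the ranges were -0.29 to 0.057 for Rbp4, -0.16 to 0.24 for Aldh1a1, -0.19 to 0.27 for Crabp2, -0.69 to 0.36, -0.57 to 0.45 and -0.45 to 0.085 for the 3 brightest Stra6 probe sets, -0.27 to 0.16 for Rarb, -0.32 to 0.21 for Rxra, -0.023 to 0.19 and -0.16 to 0.074 for Rxrg, -0.13 to 0.01 for Stra6l, -0.90 to 0.069 for Crabp1, -0.13 to 0.16 for Cyp1b1 and -0.50 to 0.039 for Cyp26b1. Without recuperated array 4 the relations to the tanycyte markers were 0.55 for Rbp4, 0.59 for Aldh1a1, 0.27 for Crabp2, 0.57 for Stra6, 0.13 for Rara, 0.19 for Rarb, 0.23 for Rxra and 0.38 for Rxrg. The causes of these changes were not tested. No measure of background was used here, and Rara, Rxra, Rarres1 and Drd2 lay mostly or always below the array median.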

Other observations

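Ttr, the blood and cerebrospinal fluid carrier of thyroid hormone that also binds Rbp4, had a wider range over the arrays than any of the 9 retinoid genes, and was chosen for mention after its values were seen. It was at 4.47, 4.77, 4.15, 6.30, 6.38 and 8.85 on control arrays 1 to 6, and at 5.34, 4.56, 4.79, 4.10, 10.45 and 4.66 on recuperated arrays 1 to 6. The high values stood on recuperated array 5 and control array 6, and the difference between the groups was -0.19 ± 1.03 (log2, SE; exact permutation p = 0.844), and 0.12 ± 1.09 (SE) without recuperated array 4. Ttr is the brightest of the choroid plexus markers used here, and the other 4 measured (Folr1, Kcnj13, Otx2 and Kl) exceeded the array median on 0 arrays. The mean of that list was highest on the same 2 arrays, at -0.48 and -0.61 from the array median. Ttr is part of that mean and has a wide range, so the mean is no separate evidence on these arrays. Rbp4, at 7.78 and 8.13 on these arrays, was not high there.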
